A study of Rattus norvegicus with 12 samples.

Results

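Of the 18166 named genes measured in rat cardiomyocyte cultures exposed to SIN-1, 38 encode matrix metalloproteinases (20 Mmp genes), secreted ADAMTS proteases (14 Adamts genes) or their tissue inhibitors (4 Timp genes). They were taken by symbol, as genes named Mmp, Adamts or Timp followed by a number, each with the probe of highest mean over all arrays, and each of the 38 turned out to have 1 probe. The study treated primary rat cardiomyocytes, labelled wt and grown in medium with fetal bovine and horse serum, with SIN-1 (3-morpholinosydnonimine), a donor of peroxynitrite, for 70 min, 4 h or 8 h, and compared them with control cells. RNA of 3 samples in each of the 4 groups was hybridised to 12 one-colour whole-transcript arrays, and the deposited RMA values are log2 expression. The labels give no strain, animal age, SIN-1 dose, control vehicle or control culture time. The design text calls the samples biological triplicates without saying whether cultures were separate, so p-values measure the spread between these samples, which may be in part technical.

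Matrix metalloproteinases are zinc-dependent enzymes that are made as inactive precursors and degrade collagens, elastin, proteoglycans and other matrix proteins. ADAMTS proteases share the zinc-binding catalytic fold and carry thrombospondin repeats. Some trim large proteoglycans such as versican and aggrecan, and some process procollagens. TIMPs bind the active site and block it, and in the heart the balance of these enzymes and inhibitors is known to shape matrix turnover. Peroxynitrite is known to activate precursor MMP2 protein chemically, a step that mRNA arrays do not measure.

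The labelled cell type was set against its markers first. Of 12 measured cardiomyocyte markers, 9 had a mean at or below 5.64, the 95th percentile of 65 olfactory receptor genes that served as a yardstick for background signal. Among them were the myosin heavy chain genes Myh6 (mean log2 expression 3.78) and Myh7 (3.57), titin Ttn (4.49) and the Z-disc gene Actn2 (4.33), while Tnnt2 (5.84), Tnnc1 (7.14) and Pln (7.94) lay above it. Fibroblast markers were readily measured, 10 of 14 lying above that level, with Col1a1 at 12.77 and Postn at 11.62, and 5 of 6 smooth muscle and pericyte markers did so, with Tagln at 12.46. Endothelial markers had 5 of 6 and macrophage and leukocyte markers 8 of 9 in the olfactory receptor range. The results below therefore describe cultures that carry the cardiomyocyte label but show most of its defining markers inside the olfactory receptor range. That range is wide: the median of the 65 olfactory receptor genes was 3.05, and its limit lies above every array median (4.98 to 5.12). In such bulk RNA, fewer cells of a type and less RNA per cell cannot be told apart.

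At 70 min of SIN-1, 9 of the 38 genes fell and 1 rose. The genes that fell encode the proteoglycanases Adamts5 and Adamts15, the procollagen protease Adamts3, the fibrillin-linked Adamts10, the gelatinase Mmp2, the stromelysin Mmp11, the membrane-bound Mmp16, Mmp19 and the inhibitor Timp3. Among them Adamts15 was 2.13-fold and Mmp19 1.21-fold lower, and the rise of Adamts1 was 1.13-fold. By 4 h Adamts15 and Adamts3 were no longer called different from control while Adamts5, Adamts10 and Timp3 still were, and at 8 h none of the 38 differed from control by the same test. In limma with Benjamini-Hochberg adjustment over all genes, 26.3% of the 38 were called at 70 min against 14.6% of all genes tested, 23.7% against 7.81% for falls and 2.63% against 6.76% for rises. With a change of at least 1.5-fold as well, 6 of the 38 were called, against 4.07% of all genes. The arrays of the 70 min and control groups did not overlap for 15 of the 38, 3 higher and 12 lower, against 31.8% of all genes. The median log2 difference was -0.05 over the 38 genes and 0.03 over all genes. Of the 38, 18 had a mean above the olfactory receptor range, and 9 of the 10 called at 70 min were among these 18. Adamts3, the other, had a mean of 5.63, just under the limit. The 70 min means of Adamts3 and Adamts5 lay in that range, so every difference given for them that involves the 70 min arrays rests on a signal not clearly above background. Among the 9083 genes whose mean was at or above the median gene, tested on their own, 30.3% were called at 70 min, and so were 11 of the 18 family members among them (61.1%).

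**Figure D1:**
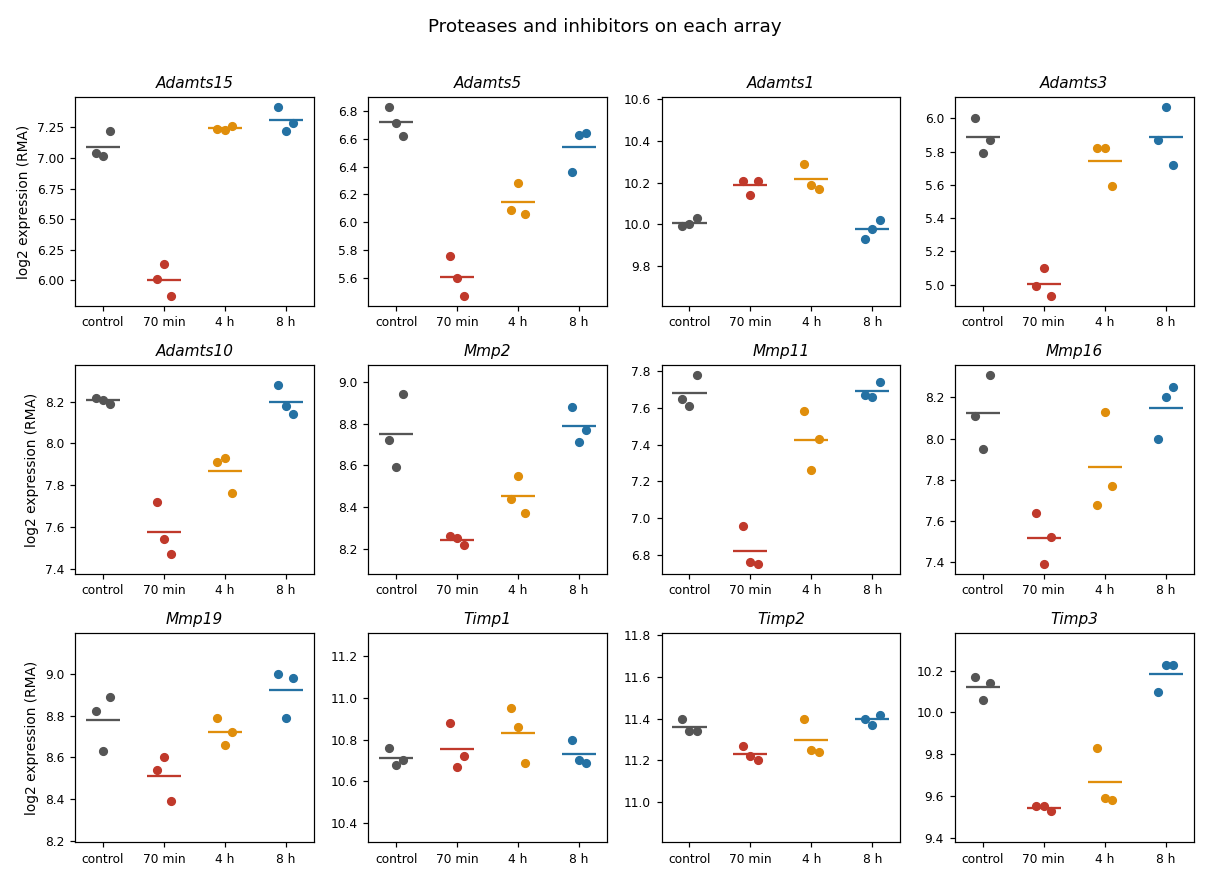
Log2 expression (RMA) on each array for the 9 ADAMTS and Mmp genes called in a comparison with control and for Timp1, Timp2 and Timp3, with a separate scale in each panel; points are arrays and bars the means of 3. Adamts15 and Adamts3 drop at 70 min and stand near control by 4 h, whereas Timp3 is still low at 4 h.

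Among proteases that cut large proteoglycans, Adamts5 and Adamts15 fell and Adamts1 rose. Adamts5 encodes a major aggrecanase. It read 6.83, 6.71 and 6.62 in the 3 control arrays, 5.76, 5.60 and 5.47 at 70 min, 6.09, 6.28 and 6.06 at 4 h and 6.36, 6.63 and 6.64 at 8 h. All 70 min values lay below all 4 h values, and these below all control values, while the 8 h and control arrays overlapped. The log2 difference from control was -1.11 ± 0.12 (SE, n = 3 per group) at 70 min (limma adjusted p = 4.87e-06), -0.57 ± 0.12 at 4 h (0.00807) and -0.18 ± 0.12 at 8 h (0.938). Only 1 of the 3 arrays at 70 min lay above the olfactory receptor limit, and with the other arrays set to that limit Adamts5 was at least 2.06-fold lower. Without control replicate 1 the 4 h call was lost (-0.52, adjusted p = 0.0567).

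Adamts15, whose product cleaves versican and aggrecan, behaved differently after 70 min. Its values were 7.04, 7.02 and 7.22 in controls, 6.01, 6.13 and 5.87 at 70 min, 7.24, 7.23 and 7.26 at 4 h and 7.42, 7.22 and 7.29 at 8 h. The 70 min arrays lay below every other array, and the 4 h and 8 h arrays lay at or slightly above the highest control. The log2 difference was -1.09 ± 0.10 (SE) at 70 min, 2.13-fold lower (limma adjusted p = 7.5e-07), then 0.15 ± 0.10 at 4 h (0.501) and 0.22 ± 0.10 at 8 h (0.906).

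Adamts1, an early-response proteoglycanase, moved the other way by a small amount. The arrays read 9.99, 10 and 10.03 in controls, 10.21, 10.14 and 10.21 at 70 min, 10.29, 10.19 and 10.17 at 4 h and 9.93, 9.98 and 10.02 at 8 h. All 6 arrays at 70 min and 4 h lay above all controls and all 8 h arrays. The log2 difference was 0.18 ± 0.05 (SE) at 70 min (limma adjusted p = 0.0254) and 0.21 ± 0.05 at 4 h (0.0289). Both calls depended on single arrays. At 70 min the adjusted p became 0.0919, 0.0741 and 0.0521 on dropping control replicates 1, 2 and 3 in turn, and 0.0588 and 0.0866 on dropping 70 min replicates 1 and 3. At 4 h the same control arrays gave 0.122, 0.112 and 0.071, and 4 h replicates 1 and 2 gave 0.136 and 0.0546. After a further quantile normalization the rises were 0.11 (adjusted p = 0.141) and 0.15 (0.101). The other members of this group, Adamts4 and Adamts9, were at 0.07 ± 0.19 and -0.08 ± 0.09 at 70 min and did not pass (adjusted p = 0.858 and 0.611).

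In the RefSeq gene table Adamts1 and Adamts5 are neighbouring protein-coding genes. At 70 min their differences had opposite signs, 0.18 and -1.11.

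Of the procollagen N-propeptidases, which remove the amino-terminal extension of procollagens, Adamts3 fell at 70 min and Adamts2 and Adamts14 were not called. Adamts3 read 6.0, 5.79 and 5.87 in controls, 4.99, 5.10 and 4.93 at 70 min, 5.82, 5.82 and 5.59 at 4 h and 5.87, 6.07 and 5.72 at 8 h. Its 70 min arrays lay below every other array, and the remaining groups overlapped. The log2 difference was -0.88 ± 0.12 (SE) at 70 min (limma adjusted p = 8.8e-05), and -0.14 ± 0.12 at 4 h (0.665). All 3 of its 70 min values lay inside the olfactory receptor range, and against that limit Adamts3 was lower by at least 0.25 on the log2 scale. Adamts14 went the other way at 70 min without passing (0.34 ± 0.13, SE, adjusted p = 0.0972), and Adamts2, which acts on type I procollagen, was at -0.17 ± 0.10 (0.295).

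Among the remaining ADAMTS genes Adamts10, whose product binds fibrillin microfibrils and whose human gene is mutated in Weill-Marchesani syndrome, fell. It read 8.22, 8.21 and 8.19 in controls, 7.72, 7.54 and 7.47 at 70 min, 7.91, 7.93 and 7.76 at 4 h and 8.28, 8.18 and 8.14 at 8 h. Each step up from 70 min to 4 h and from 4 h to 8 h was without overlap between arrays. The log2 difference was -0.63 ± 0.08 (SE) at 70 min, 1.55-fold lower (limma adjusted p = 4.7e-05), and -0.34 ± 0.08 at 4 h (0.0242). Dropping control replicate 1, 2 or 3 raised the 4 h adjusted p to 0.0996, 0.0878 and 0.0732, and dropping the last 4 h array, replicate 3, raised it to 0.0943. Adamts12 and Adamts7, which can cleave cartilage oligomeric matrix protein, were at -0.18 ± 0.08 (adjusted p = 0.134) and -0.06 ± 0.10 (0.752) at 70 min. At 8 h Adamts12 was at -0.21 ± 0.08 (0.877). Adamts17, Adamts18 and Adamts19 lay in the olfactory receptor range on average and none was called in any comparison.

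Mmp2 encodes gelatinase A, which digests denatured collagen and basement membrane collagen. Its values were 8.72, 8.59 and 8.94 in controls, 8.26, 8.25 and 8.22 at 70 min, 8.44, 8.55 and 8.37 at 4 h and 8.88, 8.71 and 8.77 at 8 h. The treated arrays at 70 min and 4 h all lay below the lowest control, and the 8 h arrays lay within the control range. At 70 min Mmp2 was 1.42-fold lower (log2 -0.51 ± 0.08, SE, limma adjusted p = 0.000505). At 4 h it stood at -0.29 ± 0.08 and did not pass (adjusted p = 0.0667), and it stayed uncalled in 19 of 23 alternatives without a fold threshold. Settings in which it passed included dropping control replicate 2 (-0.37, 0.0369) and a further quantile normalization (0.0416). The other gelatinase, Mmp9, averaged 5.03, inside the olfactory receptor range, and was at 0.05 ± 0.16 at 70 min (adjusted p = 0.88), so a change of Mmp9 between -0.28 and 0.38 would lie within its 95% interval.

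Mmp11, or stromelysin-3, a protease of stromal cells, fell more than Mmp2. It read 7.65, 7.61 and 7.78 in controls, 6.96, 6.76 and 6.75 at 70 min, 7.58, 7.26 and 7.43 at 4 h and 7.67, 7.66 and 7.74 at 8 h. The 70 min arrays lay below all others, and the 4 h arrays lay between them and the controls. The log2 difference was -0.86 ± 0.10 (SE) at 70 min, 1.81-fold lower (limma adjusted p = 9.99e-06), and -0.26 ± 0.10 at 4 h (0.187). Mmp11 overlaps Chchd10 in the RefSeq gene table, and Chchd10 was at 0.04 ± 0.15 at 70 min (adjusted p = 0.897). Chchd10 averaged 5.09 in controls, inside the olfactory receptor range, so a fall of it might not have been seen. The other stromelysins, Mmp3 and Mmp10, lay in the olfactory receptor range and were at -0.07 and 0.21 at 70 min (adjusted p = 0.776 and 0.431).

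Membrane-type metalloproteinases act at the cell surface, and Mmp14 is the known activator of precursor MMP2. Mmp16 fell at 70 min, with 8.11, 7.95 and 8.31 in controls, 7.64, 7.39 and 7.52 at 70 min, 7.68, 8.13 and 7.77 at 4 h and 8.0, 8.20 and 8.25 at 8 h. At 4 h 1 array was back at the control level and the others were not. The difference was -0.60 ± 0.12 (SE) at 70 min, 1.52-fold lower (limma adjusted p = 0.00189), and -0.26 ± 0.12 at 4 h (0.305). Mmp14 read 10.16, 10.07 and 10.17 in controls and 10.32, 10.32 and 10.20 at 70 min. These groups did not overlap, yet the difference of 0.15 ± 0.05 (SE) did not pass (adjusted p = 0.0632). Mmp15 and Mmp17 lay in the olfactory receptor range and were not called.

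Of the remaining Mmp genes, Mmp19, which encodes a soluble protease of basement membrane proteins, was called at 70 min. It read 8.82, 8.63 and 8.89 in controls, 8.54, 8.60 and 8.39 at 70 min, 8.79, 8.66 and 8.72 at 4 h and 9.0, 8.79 and 8.98 at 8 h. The 70 min arrays lay just below the lowest control, and the 4 h and 8 h arrays overlapped the controls. The fall of 0.27 (SE 0.08, limma adjusted p = 0.0373) did not pass once control replicate 1 (0.131), control replicate 3 (0.166) or 70 min replicate 3 (0.173) was dropped. Mmp23 and Mmp28, both above the olfactory receptor range, were at -0.21 ± 0.09 and -0.15 ± 0.11 at 70 min and did not pass (adjusted p = 0.142 and 0.429).

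Among the inhibitors Timp3 alone was called against control. TIMP3 is bound to the matrix and also inhibits ADAMTS proteoglycanases. It read 10.17, 10.06 and 10.14 in controls, 9.55, 9.55 and 9.53 at 70 min, 9.83, 9.59 and 9.58 at 4 h and 10.10, 10.23 and 10.23 at 8 h. All 6 arrays at 70 min and 4 h lay below all 6 control and 8 h arrays. The log2 difference was -0.58 ± 0.07 (SE) at 70 min, 1.49-fold lower (limma adjusted p = 1.49e-05), -0.45 ± 0.07 at 4 h (0.000723) and 0.07 ± 0.07 at 8 h (0.975). Both calls were kept in all 23 alternatives that kept the threshold on adjusted p alone. Timp3 overlaps Syn3 in the RefSeq gene table, and Syn3 was at -0.03 ± 0.14 at 70 min (adjusted p = 0.916). Syn3 averaged 5.22 in controls, inside the olfactory receptor range, so a fall of it might not have been seen.

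Timp1, Timp2 and Timp4 did not pass in any comparison with control. Timp1 read 10.76, 10.68 and 10.70 in controls, 10.88, 10.67 and 10.72 at 70 min, 10.95, 10.86 and 10.69 at 4 h and 10.80, 10.70 and 10.69 at 8 h, with overlap throughout. Its 70 min difference was 0.05 with a 95% interval from -0.09 to 0.19. Timp2, a general MMP inhibitor that also takes part in MMP2 activation, read 11.40, 11.34 and 11.34 in controls, 11.27, 11.22 and 11.20 at 70 min, 11.40, 11.25 and 11.24 at 4 h and 11.40, 11.37 and 11.42 at 8 h. All 70 min arrays lay below all controls by a small amount (-0.13 ± 0.05, SE, limma adjusted p = 0.0707). This stayed uncalled in 17 of 23 alternatives without a fold threshold. Settings in which it passed included a further quantile normalization (0.0163) and dropping 4 h replicate 1 (0.0327). Timp4, the family member known as enriched in heart, read 4.54, 4.77 and 4.90 in controls, 4.65, 4.67 and 4.37 at 70 min, 4.91, 4.68 and 4.67 at 4 h and 4.63, 4.64 and 4.55 at 8 h. It lay inside the olfactory receptor range, and each treated group overlapped the controls. Its 8 h arrays lay just below its 4 h arrays (-0.14 ± 0.14, SE, limma adjusted p = 0.71).

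**Figure D2:**
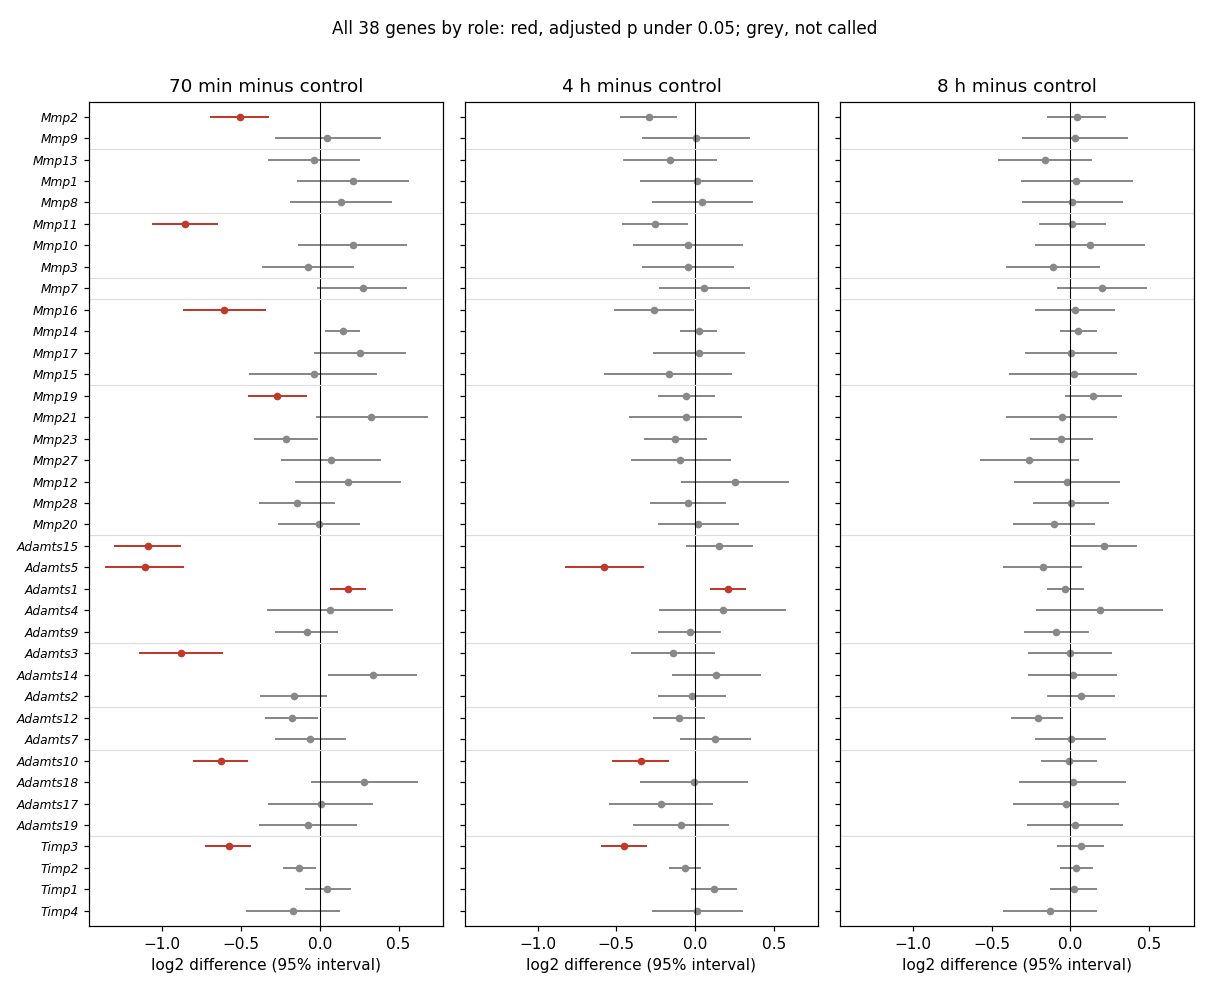
Log2 difference from control with its 95% interval for all 38 genes at 70 min, 4 h and 8 h, ordered by role with grey lines between roles; red marks an adjusted p under 0.05. At 70 min 10 genes are red, at 4 h 4 and at 8 h none.

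Across the set at 4 h, 4 of 38 genes were called, 3 lower and 1 higher, which is 10.5% against 3.85% of all genes tested, of which 1.77% were lower and 2.08% higher. All 4 were among the 18 genes above the olfactory receptor range, 22.2% of them. The 3.85% over all genes counts dim genes too. In a separate fit of the 9083 brighter genes, with its own adjustment, 846 were called. In that fit Mmp2 passed as well (limma adjusted p = 0.0408). None of the 4 reached 1.5-fold, as 0.98% of all genes did. The count was 1 without control replicate 1 and 2 without control replicate 3, and it was 2 with arrays centred on their medians or without the trend in the prior variance. At 8 h 0 of 38 were called by limma, against 5 genes or 0.0275% of all genes tested, and 2 of the 38, Adamts12 and Adamts15, had an unadjusted p under 0.05 (5.26%, against 5.47% of all genes). The 95% intervals of the 10 genes called at 70 min bound what an 8 h difference could be. For Timp3 it ran from -0.08 to 0.21, for Mmp2 from -0.14 to 0.22, for Mmp11 from -0.19 to 0.22 and for Adamts5 from -0.42 to 0.07. For Adamts15 it ran from 0.01 to 0.42, wholly on the higher side, without a call (limma adjusted p = 0.906). The intervals of the other genes called at 70 min included no difference. All 3 comparisons with control share the same 3 control arrays.

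The steps between times were tested directly. From 70 min to 4 h 5 of 38 genes rose and none fell, 13.2% against 7.63% of all genes (4.48% higher and 3.15% lower). With a change of at least 1.5-fold 3 were called, against 2.18% of all genes. Of the 5 genes, 4 lay above the olfactory receptor range, 22.2% of the 18 genes there. The 7.63% over all genes counts dim genes too. In the separate fit of the 9083 brighter genes 1592 were called in this step. Adamts15 rose by 1.25 ± 0.10 log2 units (SE, limma adjusted p = 2.78e-07), Adamts3 by 0.74 ± 0.12 (0.000868), Mmp11 by 0.60 ± 0.10 (0.000606), Adamts5 by 0.54 ± 0.12 (0.00746) and Adamts10 by 0.29 ± 0.08 (0.0394). Timp3, at 0.12 ± 0.07 (adjusted p = 0.322), was not called in that step. Adamts10 did not pass this step when any control array was dropped (0.0596, 0.0554 and 0.0576 for replicates 1 to 3), nor when 70 min replicate 2 (0.128) or 3 (0.182), 4 h replicate 1 (0.112) or 2 (0.152) or 8 h replicate 2 (0.0609) was.

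From 4 h to 8 h 3 genes rose and Adamts1 fell, 4 of 38 or 10.5% against 3.51% of all genes (1.97% higher and 1.54% lower). None reached 1.5-fold, as 0.82% of all genes did. All 4 lay above the olfactory receptor range, 22.2% of the 18 genes there. In the separate fit of the 9083 brighter genes 813 were called, and Adamts5 passed there as well (limma adjusted p = 0.0399). Timp3 rose by 0.52 ± 0.07 (SE, limma adjusted p = 0.000193), Adamts10 by 0.34 ± 0.08 (0.0286) and Mmp2 by 0.33 ± 0.08 (0.0367), and Adamts1 fell by 0.24 (SE 0.05, 0.0132). Adamts15, at 0.06 ± 0.10 (0.846), was not called in this step. The count was 1 without 8 h replicate 2 and 2 without 4 h replicate 1 or 3, and the Timp3 rise was called in each. Mmp2 was lost without control replicate 1 (0.0565), 4 h replicate 1 or 3 (0.0829 and 0.136) or 8 h replicate 1, 2 or 3 (0.136, 0.0759 and 0.0786), Adamts10 without 4 h replicate 3 (0.118) or 8 h replicate 1 or 2 (0.111 and 0.0992), and Adamts1 without 4 h replicate 1 (0.0553) or 8 h replicate 2 (0.0639).

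Between 70 min and 8 h 11 of 38 genes differed, 10 higher at 8 h and Adamts1 lower, 28.9% against 16% of all genes (9.56% higher and 6.43% lower). With a change of at least 1.5-fold 7 were called, against 4.17% of all genes. These were the 10 genes called at 70 min against control, all in the opposite direction, and Timp2, which was 0.17 ± 0.05 higher at 8 h (SE, limma adjusted p = 0.0192). Both comparisons use the 70 min arrays. Of the 11 genes, 10 lay above the olfactory receptor range, 55.6% of the 18 genes there. In the separate fit of the 9083 brighter genes 2967 were called between 70 min and 8 h. The Timp2 call was lost without 70 min replicate 2 or 3 (0.0628 and 0.0755) or 8 h replicate 3 (0.0645).

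**Figure D3:**
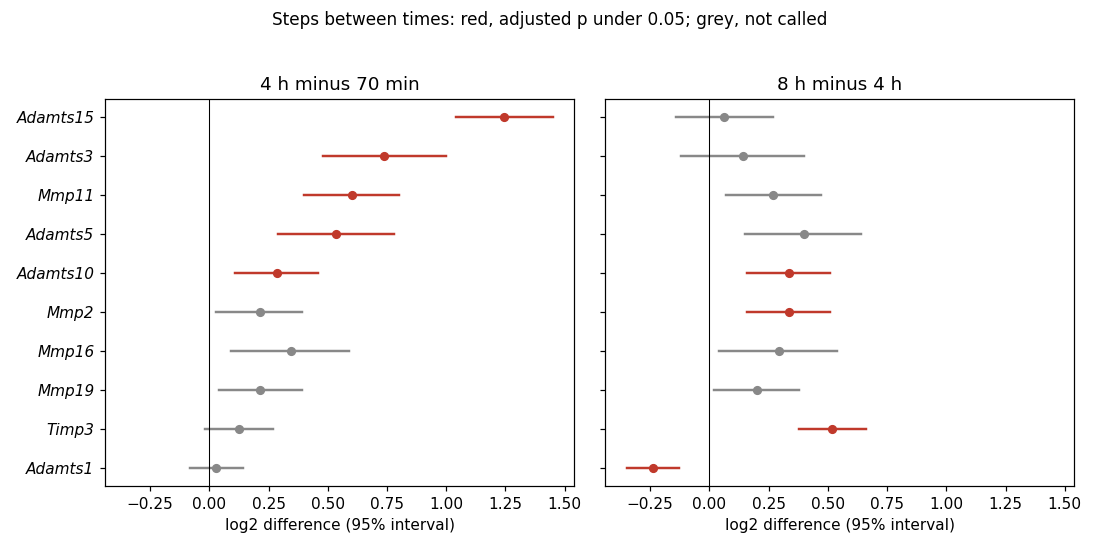
Log2 difference with its 95% interval for the 10 genes called at 70 min, between 70 min and 4 h on the left and between 4 h and 8 h on the right; red marks an adjusted p under 0.05. Adamts15 makes its whole step by 4 h (1.25) and Timp3 makes its called step after 4 h (0.52).

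The arrays of 70 min replicates 2 and 3 and 4 h replicate 3 stood apart, with array medians of 5.11, 5.12 and 5.09, against 4.98 to 5.05 in the other 9 arrays. When these 3 arrays were dropped, the single remaining 70 min array was assumed to have the spread of the other groups. This setting, added after seeing the data, kept 7 of the 10 calls at 70 min and lost Adamts1 (adjusted p = 0.142), Mmp16 (0.139) and Mmp19 (0.314). Some fibroblast markers were lower at 70 min, on replicate 1 as well as on replicates 2 and 3. Averaged over the 14 markers, 1 of which is Mmp2 itself, log2 expression per array was 8.14 to 8.19 in controls, 7.80 to 7.96 at 70 min, 8.02 to 8.08 at 4 h and 8.09 to 8.24 at 8 h. Of these 14, 5 fell at 70 min (Lum, Dcn, Mmp2, Col3a1 and Ddr2) and none rose, 35.7% against 7.81% of all genes lower. The median over the 14 was -0.14. The abundant markers Col1a1, Col1a2 and Postn were at 0.01, -0.10 and -0.05 and did not pass, and Tcf21, Fap, Fbln1 and Pi16 lay in the olfactory receptor range. The Ddr2 call (-0.28, adjusted p = 0.0393) did not hold on dropping any control array (0.121, 0.0554 and 0.129), 70 min replicate 2 (0.165) or 3 (0.0892) or 8 h replicate 2 (0.0555). Smooth muscle and pericyte markers averaged 7.70 to 7.85 in controls and 7.79 to 7.87 at 70 min, and cardiomyocyte markers 5.01 to 5.13 and 4.99 to 5.26. Endothelial markers averaged 4.61 to 4.69 and 4.44 to 4.66, and macrophage and leukocyte markers 4.23 to 4.35 and 4.28 to 4.41. Of the endothelial markers Tek, the only one above the olfactory receptor range on average, fell at 70 min (-0.88 ± 0.13, SE, limma adjusted p = 0.00013, at least 1.32-fold against that range). The smooth muscle marker Tagln rose by 0.13 (adjusted p = 0.0313), a call lost with a further quantile normalization (0.246), on dropping control replicate 1 (0.123) or 2 (0.112) and on dropping 70 min replicate 1 (0.0635) or 2 (0.131). With the array median as a covariate, also added after seeing the data, only Mmp19 of the 10 calls at 70 min was lost (-0.24, limma adjusted p = 0.104). The Adamts10 step from 70 min to 4 h (0.20, 0.163) and the Timp2 difference between 70 min and 8 h (0.13, 0.174) were lost as well. Mmp2 passed at 4 h against control (-0.30, 0.0365). Beyond this fit the part of array median in the protease results was not tested, and the part of cell composition was not tested.

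Related genes of the same system, from a list of other proteases, inhibitors, activators and matrix substrates, were read beside the 38. Of 66 measured, 9 rose and 11 fell at 70 min, 30.3% against 14.6% of all genes, with a median difference of -0.06. Most of the list is well expressed: among the 9083 brighter genes tested on their own, 23 of its 52 members there were called (44.2%), against 30.3%. Adam12, a membrane-anchored disintegrin metalloproteinase, rose by 0.99 ± 0.06 (SE, limma adjusted p = 9.41e-09), the heparan sulfate proteoglycan gene Sdc4 by 0.78 ± 0.06 (1.59e-07) and Adam19 by 0.47 ± 0.07 (0.000129). Acan, which encodes the aggrecanase substrate aggrecan, rose by 0.74 ± 0.07 (1.94e-06), Tll1, a tolloid protease, by 0.38 ± 0.08 (0.00274) and Tgfb1 by 0.37 ± 0.07 (0.00137). Adamts5, an aggrecanase gene, was lower on the same arrays.

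Among related genes that fell, the small proteoglycan gene Lum was at -1.42 ± 0.10 and Dcn at -1.05 ± 0.17 (SE, limma adjusted p = 6.3e-08 and 0.000433). All 3 Dcn values at 70 min lay in the olfactory receptor range, and against its limit Dcn was at least 1.44-fold lower. Hbegf, a growth factor shed by metalloproteinases, fell by 0.55 (0.000532) and Mme, which encodes neprilysin, by 0.52 (0.0252). Bmp1, the procollagen C-propeptidase, fell by 0.45 (0.000912) and the collagen gene Col3a1 by 0.41 (1.31e-06). Adamts3, which acts at the other end of procollagens, fell on the same arrays. Mme did not pass once control replicate 1 or 3 was dropped (0.0976 and 0.108), nor once 70 min replicate 2 or 3 was (0.105 and 0.0877).

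At 4 h 6 of the 66 related genes were called, 9.09% against 3.85% of all genes. Adam12 and Acan were still higher, by 0.66 ± 0.06 and 0.47 ± 0.07 (SE, limma adjusted p = 8.79e-06 and 0.000876), and Hbegf was still lower, at -0.60 ± 0.09 (0.000981). Bmp1, elastin (Eln) and Col3a1 were lower by smaller amounts, at -0.32, -0.27 and -0.18 (0.0289, 0.0364 and 0.0108), and each of these 3 calls was lost without some single array: Col3a1 without control replicate 3 or 4 h replicate 1 (0.0607 and 0.0528), Bmp1 on dropping any control array (0.0941, 0.127 and 0.0811) or 4 h replicate 2 (0.0893) or 3 (0.119), and Eln on dropping any control array (0.0708, 0.129 and 0.14), 4 h replicate 2 (0.113) or 3 (0.142) or 8 h replicate 2 (0.0574). Without control replicate 3 the count was 3. At 8 h 0 of 66 were called by limma, against 0.0275% of all genes, and 5 had an unadjusted p under 0.05 (7.58%, against 5.47% of all genes).

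**Figure D4:**
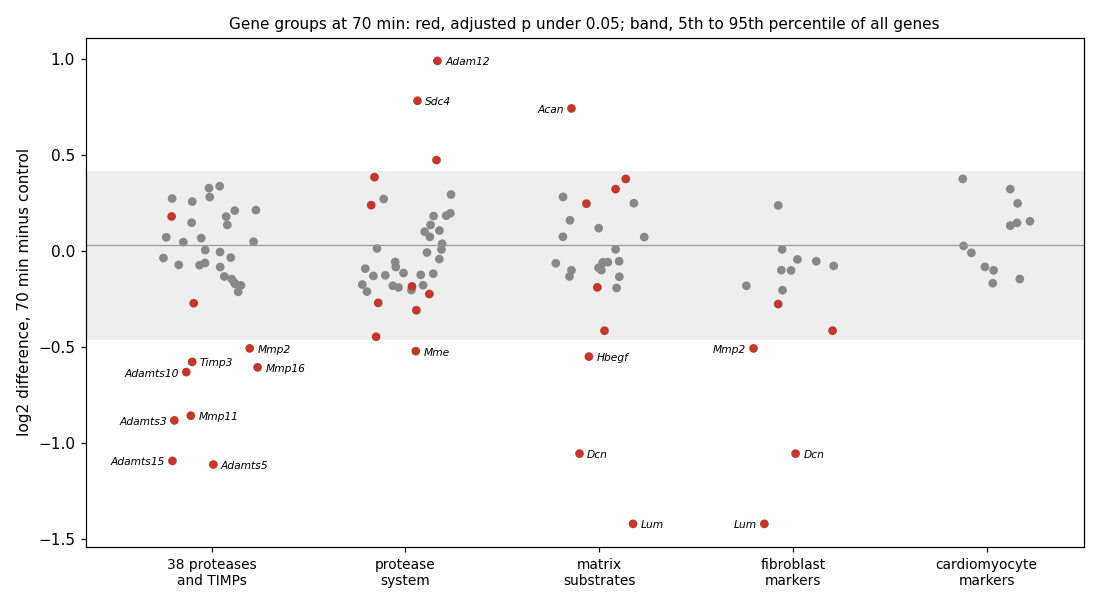
Log2 difference at 70 min for each gene of 5 groups, spread sideways for legibility; red marks an adjusted p under 0.05, the band holds the 5th to 95th percentile of all genes and the grey line their median of 0.03. Adamts5 (-1.11) and Adamts15 (-1.09) lie well below the line, and Adam12 (0.99) and Acan (0.74) lie on the other side of the line.

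Promoter letters were read as a description. Of the 38 genes, 29 had an entry in the RefSeq promoter table of assembly GRCr8, 5 of them called at 70 min. The called genes Adamts5, Adamts15, Mmp2, Mmp16 and Mmp19 had no entry. The 250 bases before the annotated start are shown for 3 genes that fell (Timp3, Mmp11 and Adamts3) and for Adamts1, which rose. Capitals mark CACCC, the core letters bound by Krüppel-like factors, on either strand.
Timp3, GRCr8 chr7:19459559-19459808, minus strand: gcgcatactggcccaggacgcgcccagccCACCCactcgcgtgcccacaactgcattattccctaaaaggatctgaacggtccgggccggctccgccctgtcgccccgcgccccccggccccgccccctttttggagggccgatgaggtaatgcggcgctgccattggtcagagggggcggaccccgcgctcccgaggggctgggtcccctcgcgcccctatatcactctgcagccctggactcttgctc
Mmp11, GRCr8 chr20:12730034-12730283, plus strand: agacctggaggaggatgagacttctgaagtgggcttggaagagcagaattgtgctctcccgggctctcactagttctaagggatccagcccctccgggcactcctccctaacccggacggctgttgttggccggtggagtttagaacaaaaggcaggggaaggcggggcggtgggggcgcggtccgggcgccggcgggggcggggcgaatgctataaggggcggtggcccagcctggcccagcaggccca
Adamts3, GRCr8 chr14:18514999-18515248, plus strand: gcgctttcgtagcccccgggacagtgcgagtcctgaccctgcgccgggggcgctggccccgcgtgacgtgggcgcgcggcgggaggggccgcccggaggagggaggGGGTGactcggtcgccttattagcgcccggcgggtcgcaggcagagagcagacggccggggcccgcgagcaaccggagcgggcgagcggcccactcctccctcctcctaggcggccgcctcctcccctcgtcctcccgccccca
Adamts1, GRCr8 chr11:38427385-38427634, minus strand: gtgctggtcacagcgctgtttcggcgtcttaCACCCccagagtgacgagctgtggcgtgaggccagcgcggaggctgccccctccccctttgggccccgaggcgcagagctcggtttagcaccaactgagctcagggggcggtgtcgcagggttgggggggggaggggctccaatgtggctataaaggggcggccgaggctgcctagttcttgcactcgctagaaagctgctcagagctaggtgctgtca
CACCC was present in 21 of the 29 promoters and in 4 of the 5 of called genes, Mmp11 being without it, against 49.4% of 27457 promoters of the same length. The 5 promoters of called genes were 65.2% to 77.6% G and C, against a median of 52.0% over all promoters. The CACCC counts were not matched for this. The cAMP element TGACGTCA was in none of the 29 (1.7% of all promoters). These matches are descriptions of letters, not of binding.

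The AP-1 letters TGANTCA, counted on both strands, were found in 7 of the 29 promoters against 6.36% of all 27457, and in 0 of the 5 of genes called at 70 min. All 7 belong to genes of the single-chromosome MMP cluster, in which Mmp13, Mmp12, Mmp3, Mmp1, Mmp10, Mmp8, Mmp27, Mmp20 and Mmp7 follow each other, with Mmp1b, not measured here, between Mmp12 and Mmp3. Their matches nearest the start are shown with flanking bases, AP-1 letters in capitals.
Mmp1, GRCr8 chr8:12943360-12943384, plus strand: tgtcaaccaTGAGTCAcgtagcctc
Mmp10, GRCr8 chr8:12974637-12974661, plus strand: gcacccacaTGAGTCAtgcttagtg
Mmp12, GRCr8 chr8:12866556-12866580, plus strand: catcaacagTGAGTCAtattgagga
Mmp13, GRCr8 chr8:12782754-12782778, plus strand: cccaagtggTGACTCAtcactattg
Mmp20, GRCr8 chr8:13074174-13074198, plus strand: tttgagacaTGAATCAtcacttgca
Mmp3, GRCr8 chr8:12925201-12925225, plus strand: aagcaattaTGAGTCAgtttgcggg
Mmp7, GRCr8 chr8:13132954-13132978, plus strand: gcatgagaaTGAGTCAccgattccc
The 7 matches began between 61 and 96 bases before the start, and Mmp1 held another at 242 bases. A CACCC match can share letters with the end of an AP-1 match. None of the 9 cluster genes was called in any comparison, and all 9 lay in the olfactory receptor range. The collagenases among them, Mmp1, Mmp8 and Mmp13, which cut fibrillar collagen, ranged over all arrays from 2.45 to 3.07, 3.34 to 3.85 and 3.27 to 3.72. At 70 min the median log2 difference of the cluster was 0.14, from -0.07 (Mmp3) to 0.27 (Mmp7). The matrilysin Mmp7 did not pass (limma adjusted p = 0.192), and Mmp12 and Mmp20 were at 0.18 and -0.01.

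The uncalled genes are bounded by the spread between arrays. For the 20 genes in the olfactory receptor range the median 95% half-width of a log2 difference at 70 min was 0.31, against 0.19 for the 18 above it, with median within-group SDs of 0.17 and 0.10. Within that range Adamts14, Mmp21 and Adamts18 had the highest log2 differences from control at 70 min, 0.34, 0.33 and 0.28, and none passed (adjusted p = 0.0972, 0.21 and 0.271). Altogether 27 of the 38 genes were called in no comparison.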

How the data were processed

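RNA from 12 samples, 3 per group, was labelled with an Affymetrix whole-transcript kit and measured on 1-colour arrays. Per the submitters' processing notes the authors used Affymetrix Expression Console 1.3.1.187, and the deposited values are RMA log2 expression. That the scale is log2 was read from their range of 1.19 to 13.63. For genome build and probe filters, the entry is: not given in the sources used here.

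Of 36685 probes, 18511 carried 1 gene symbol, 575 several and 17599 none in the platform annotation. The probe with the highest mean represented each of 18166 genes. limma 3.58.1 in R 4.3.3 (lmFit, eBayes with a trend) was fitted to all 12 arrays with a term per group, giving 6 comparisons with Benjamini-Hochberg adjustment over all genes in each and a threshold of 0.05. Printed p-values come from this fit unless the sentence names an alternative, such as a dropped array. The test was checked on simulated data. The number of arrays limits the precision, and the SE of a difference had a median of 0.131.

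The 38 genes, the related genes and the markers were chosen with earlier results of these data known. All members called against control were named with every array's value, and up to 6 called related genes were named in each direction. The plan was to name up to 3 uncalled genes per role, and more were named among the remaining Mmp genes. Alternatives were another normalization, centring, a replicate block, array weights, a robust or untrended prior, restriction to brighter genes, averaging of probes per gene, the compared groups alone, a fold threshold and each array left out. Promoters came from RefSeq (GRCr8), and 29 of 38 genes matched. Protein sequences were not used here.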

Additional observations from a re-analysis of the deposited data

Results flagged for a closer look

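These results were picked out because the response of a gene differed between exposure times in a direct test of that difference (limma, Benjamini-Hochberg adjusted over all genes, 3 arrays per group). Between 70 min and 4 h, Adamts15 differed by 1.25 on the log2 scale, Adamts3 by 0.74, Mmp11 by 0.60, Adamts5 by 0.54 and Adamts10 by 0.29, all higher at 4 h. Between 4 h and 8 h, Timp3 differed by 0.52, Adamts10 by 0.34 and Mmp2 by 0.33, higher at 8 h, and Adamts1 by -0.24. Between 70 min and 8 h the differences were 1.31 for Adamts15, 0.93 for Adamts5, 0.88 for Adamts3, 0.87 for Mmp11, 0.64 for Mmp16, 0.64 for Timp3, 0.62 for Adamts10, 0.55 for Mmp2, 0.41 for Mmp19, 0.17 for Timp2 and -0.21 for Adamts1. The 3 families of differences share arrays and are not independent.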

How the results depend on the processing

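No direction of a called result reversed in any alternative. For the 38 genes, the calls at 70 min against control numbered 10, and 8 to 11 with 1 array left out. They numbered 6 with a fold of at least 1.5. At 4 h the 4 calls became 0 with that fold, 2 without the prior trend, 2 with centred arrays and 1 to 4 with 1 array left out. At 8 h the count was 0 in every alternative and with each array left out. From 70 min to 4 h the 5 calls became 3 with the fold, 2 without the 3 arrays of highest median and 4 to 6 with 1 array left out. From 4 h to 8 h the 4 calls became 0 with the fold, 1 without the trend, 1 with centred arrays, 1 with the compared groups alone, 2 without the 3 arrays and 1 to 4 with 1 array left out. From 70 min to 8 h the 11 calls became 7 with the fold, 7 without the 3 arrays and 10 to 13 with 1 array left out. For related genes the 20 calls at 70 min became 5 with the fold, 12 without the trend, 8 without the 3 arrays and 14 to 22 with 1 array left out. Their 6 calls at 4 h became 2 with the fold, 3 without the trend, 3 with centred arrays and 3 to 7 with 1 array left out, and 0 stayed 0 at 8 h. Over all genes, the 2647 calls at 70 min became 1046 without the 3 arrays, and the 699 at 4 h became 339 without the trend. The cause was not tested. Leaving out the 3 arrays and an array-median covariate were chosen after the data were seen. The labels do not say whether replicate numbers pair the samples. Same-numbered deviations correlated at 0.17, 0.19 and -0.04 between 70 min and control. They correlated at 0.02, -0.32 and 0.24 between 4 h and 70 min. With 3 arrays per group these values cannot settle whether samples were paired. With a replicate block the 38 genes gave 11, 4 and 0 calls at 70 min, 4 h and 8 h, and the related genes 22, 6 and 0. Signals in the olfactory receptor range limit what could be seen for 20 of the 38 genes.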
